A study of Mus musculus with 8 samples.

Results

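The genes described here make the ribosome: proteins of the nucleolus that carry out, guide or assist the making of ribosomal RNA and its assembly into subunits, with the subunits of RNA polymerase I. They were chosen by gene symbol, as all probes named for the Nop, Utp, Rrp, Nol and Polr1 series with a number or letter, and for Imp3, Imp4, Gar1, Dkc1, Fbl, Ncl, Npm1 and Npm3. The symbol rule used no measured value, but it was set with earlier results of these data known. It found 59 of 25697 probes, for 42 of 16593 gene symbols, and 36 of the 42 genes were bright enough to be tested.

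Expression was measured on Illumina bead arrays in 4 kidney tumors from Lin28 transgenic animals, named Wilms tumors in the labels, and in 4 normal kidneys as controls. Tumor 1 and control 1 came from animals of 5 weeks, and tumors and controls 2 to 4 from animals of 4 months. The tumors and controls are labelled as biological replicates, with 1 array each. The sources used here do not give the promoter or Cre line that drives Lin28, the strain, the sex of the animals or any transgenic allele of the controls.

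Ribosomal RNA is transcribed by RNA polymerase I from repeated genes in the nucleolus. The small nucleolar ribonucleoproteins (snoRNPs) then modify it: those of the box C/D class methylate riboses, and those of the box H/ACA class turn uridines into pseudouridines. A large assembly, the small subunit processome, folds and cuts the precursor of the small subunit, and a separate series of factors matures the large subunit. Growing and dividing cells make many ribosomes, and the kidney's filtering and transporting cells in the adult divide little.

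In the tumors 23 of the 36 tested genes rose and 1 fell, by limma with a Benjamini-Hochberg adjusted p under 0.05. Over all 11413 genes and unnamed probes tested, 44.4% were called in either direction, 32.2% higher and 12.2% lower, while 63.9% of the ribosome assembly genes were called higher. Of the 36, 12 were called and at least 2-fold higher, or 33.3%, against 20.7% of all genes tested. The 12 include Rrp8, whose controls were all at or under background and which can only be called at least 1.29-fold higher. All 4 tumors lay above all 4 controls for 24 of the 36 (66.7%, against 30.1% of all genes), and for 0 of them did all tumors lie below all controls (10.2% of all genes). The median change of the 36 genes was 0.81 on the log2 scale, and that of all genes tested was 0.35, so that the ribosome assembly genes stood 0.46 above the median gene. In whole tissue, more or fewer cells of a type and more or less RNA per cell cannot be told apart.

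These counts depended on how the arrays were scaled. The authors' scaling to an equal mean places the median gene 0.35 log2 units higher in tumors, and scalings that bring that median near 0 called fewer ribosome assembly genes higher. With quantile normalization 16 rose, with equal medians 12, with cyclic loess 11, and with normexp correction and quantile normalization 17. The shares of all genes called higher under these settings were 20.9%, 20.0%, 18.8% and 20.5%, and those of the ribosome assembly genes 44.4%, 33.3%, 30.6% and 47.2%. Relative to the median gene, the median of the group stayed between 0.33 and 0.45 under the 4 scalings. Of the 23 genes that rose, 10 were called under all 4 of them, 5 under some and 8 under none.

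**Figure D1:**
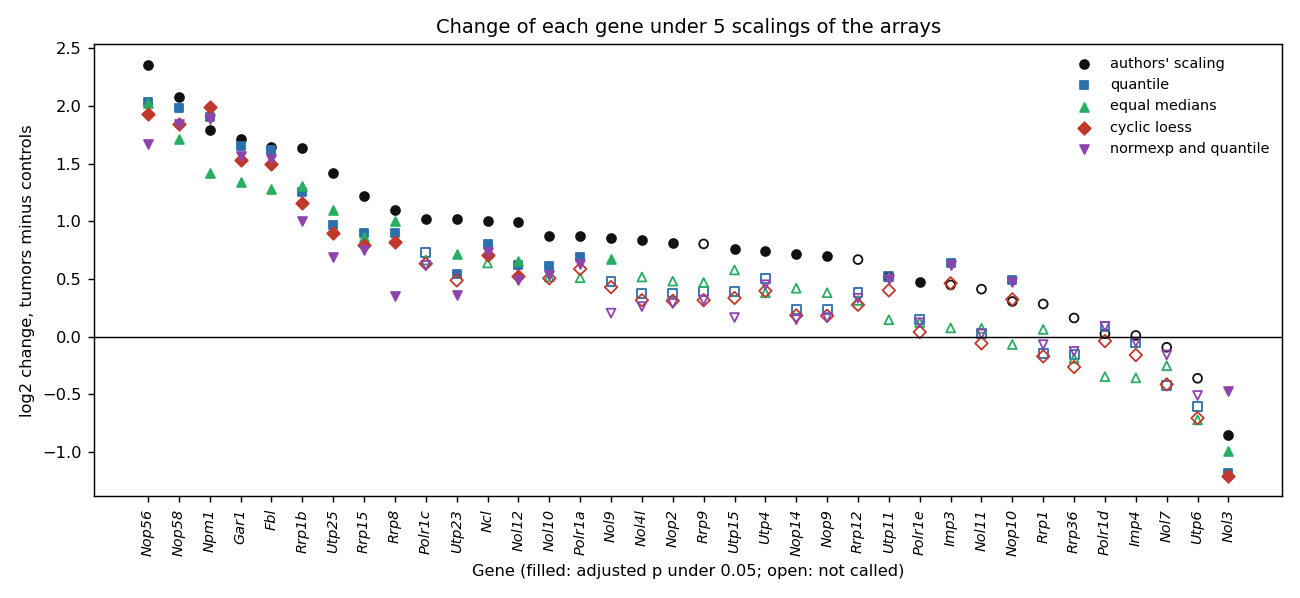
The log2 change (tumors minus controls) of each of the 36 genes is plotted for the authors' scaling and 4 others, with filled symbols for an adjusted p under 0.05 and open symbols for genes not called. Nop56, Nop58, Npm1, Gar1, Fbl, Rrp1b, Utp25, Rrp15, Nol12 and Rrp8 are filled under all 5. Polr1d, Imp4, Rrp36, Rrp1, Nop10 and Nol11 change sign between scalings.

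The box C/D snoRNP proteins had the highest median change of the roles described here. Nop56, a scaffold of that particle, had intensities of 453.1, 317.1, 596.6 and 653.1 in tumors 1 to 4 and of 61.3, 62.4, 133.2 and 86.0 in controls 1 to 4. All tumors were above all controls, and the lowest tumor was more than double the highest control. The means were 505 ± 151 and 85.7 ± 33.6 (SD, n = 4 each). Nop56 rose by 2.36 ± 0.30 (SE) log2 units, or 5.13-fold (limma adjusted p = 6.56e-04), the largest change among the 36 genes.

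Nop58, the partner of Nop56 in the same scaffold, had intensities of 770.9, 915.6, 1696.9 and 1755.5 in tumors and of 172.8, 315.2, 314.9 and 322.2 in controls. The groups did not overlap, and tumors 3 and 4 were about double tumors 1 and 2. Nop58 rose by 2.08 ± 0.33 log2 units, or 4.22-fold (limma adjusted p = 0.00187). Fbl, the methyltransferase of the particle, read 1351.5, 1020.4, 1666.7 and 2428.3 in tumors against 418.1, 511.7, 472.0 and 522.8 in controls. The controls were close together and all tumors were above them, with tumor 4 highest. The rise was 1.65 ± 0.26 log2 units, or 3.14-fold (limma adjusted p = 0.00189). All 3 proteins were called under each of the 24 alternative settings, where 18.2% to 48.5% of all genes were called higher.

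Of the box H/ACA particle 1 of 2 tested proteins rose (50%, against 32.2% of all genes). Gar1, one of its core proteins, read 1121.3, 948.4, 1579.6 and 2147.9 in tumors and 321.8, 523.8, 370.5 and 451.7 in controls. No control reached the lowest tumor, and the rise was 1.71 ± 0.28 log2 units, or 3.27-fold (limma adjusted p = 0.00223). Nop10, the smallest core protein, read 2480.0, 2214.4, 2441.0 and 2167.0 in tumors and 2018.8, 1940.5, 1803.3 and 1748.7 in controls. These groups did not overlap either, but the gap was narrow. The difference of 0.31 ± 0.15 log2 units did not pass (limma adjusted p = 0.133), and it ran from -0.07 with equal medians to 0.49 with quantile normalization (adjusted p from 0.00781 to 0.824 over the 4 scalings). A second, dimmer probe for Nop10 differed by 0.14. Dkc1, the pseudouridine synthase of the particle, has 1 probe here, which was at or under background on all 8 arrays, so it was not tested.

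RefSeq promoter windows of GRCm38.p6, 250 bases before to 50 after a gene's start, were given for 34 of the 42 genes. The bases before the start of 3 of the most raised snoRNP genes are shown as the sequence from which their transcription begins, 100 bases each, ending at the start. They lie at chr2:130274312-130274411 (plus strand) for Nop56, chr1:59684906-59685005 (plus strand) for Nop58 and chr3:129831397-129831496 (minus strand) for Gar1.
Nop56: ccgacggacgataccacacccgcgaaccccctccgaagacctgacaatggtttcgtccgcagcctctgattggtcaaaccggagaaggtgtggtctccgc
Nop58: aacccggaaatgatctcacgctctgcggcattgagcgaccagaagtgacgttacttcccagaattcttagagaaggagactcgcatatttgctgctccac
Gar1: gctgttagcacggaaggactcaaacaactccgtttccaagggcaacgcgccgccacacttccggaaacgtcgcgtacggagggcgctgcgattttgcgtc

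Npm1 and Ncl encode nucleophosmin and nucleolin, which are among the most abundant proteins of the nucleolus. Npm1, a chaperone of histones and of assembling ribosomes, had intensities of 8375.6, 7599.0, 10757.4 and 10981.2 in tumors and of 1870.9, 3280.2, 2792.0 and 2970.9 in controls. Every tumor was more than 2 times the highest control. The rise was 1.80 ± 0.23 log2 units, or 3.47-fold (limma adjusted p = 7.08e-04), and between 1.42 and 1.99 under the other scalings. Ncl, which binds the ribosomal RNA precursor, read 735.2, 474.5, 630.6 and 683.4 in tumors and 227.3, 442.3, 262.9 and 318.1 in controls. Control 2 was just under tumor 2, and the groups did not overlap. Ncl rose by 1.00 ± 0.24 log2 units (limma adjusted p = 0.0104), a second probe by 1.01, and the call was lost with equal medians (0.64, adjusted p = 0.0665).

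**Figure D2:**
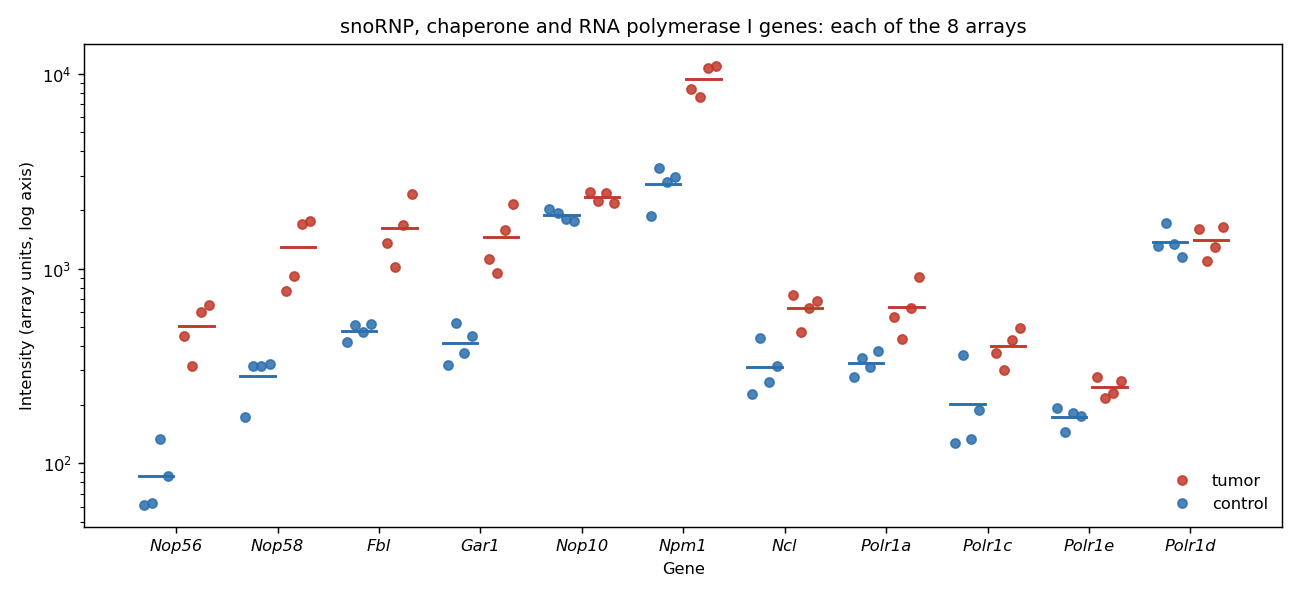
Intensities on a log axis are plotted for 11 genes of the snoRNPs, the chaperones and RNA polymerase I, with a point for each of the 4 tumors and 4 controls and a line at each group's mean. Nop56, Nop58, Fbl, Gar1 and Npm1 show wide gaps between groups, Nop10 and Polr1e narrow ones, and Polr1c and Polr1d overlap.

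The 4 tested subunits of RNA polymerase I had a median change of 0.67. Polr1a, its largest and catalytic subunit, read 563.5, 435.0, 629.5 and 904.2 in tumors and 279.4, 347.3, 311.5 and 376.0 in controls. The groups did not overlap, and Polr1a rose by 0.87 ± 0.24 log2 units, or 1.83-fold (limma adjusted p = 0.0167). It was called with quantile normalization and with normexp correction, and not with equal medians (0.51) or cyclic loess (0.59), with an adjusted p of up to 0.0874. Its 2 dimmer probes differed by 0.87 and 0.57 and did not pass when each probe was tested by itself (adjusted p = 0.0658 and 0.0990).

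Polr1c and Polr1d encode a pair of subunits that RNA polymerases I and III share. Polr1c had intensities of 369.7, 300.5, 429.7 and 495.6 in tumors and of 127.8, 360.3, 133.8 and 188.1 in controls. Control 2 lay among the tumors. Polr1c rose by 1.02 ± 0.32 log2 units (limma adjusted p = 0.0306), a call that was lost under all 4 scalings (0.62 to 0.73) and without tumor 3, tumor 4, control 1, control 3 or control 4 (adjusted p up to 0.0872). Polr1d read 1603.7, 1088.6, 1293.7 and 1630.9 in tumors and 1303.9, 1709.0, 1337.8 and 1149.3 in controls, and the groups overlapped throughout. The difference was 0.03 ± 0.21 (limma adjusted p = 0.929), with a second probe at 0.25. Polr1e, a subunit particular to RNA polymerase I, read 277.4, 216.8, 229.3 and 263.7 in tumors and 191.7, 145.5, 181.8 and 174.8 in controls. The tumors were all above the controls, by 0.47 ± 0.17 log2 units (limma adjusted p = 0.0477), but the change was 0.04 to 0.15 and not called under the 4 scalings. Leaving out 1 array also ended the call for Polr1e, unless that array was tumor 2 (adjusted p up to 0.107). Of the 4 tested polymerase subunits 3 rose (75%, against 32.2% of all genes). Under the other scalings 0 or 1 did, and with equal medians and cyclic loess it was 0 of 4, where 20.0% and 18.8% of all genes were called higher.

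Of the 16 tested genes of the small subunit processome 7 rose and 0 fell (43.8% higher, against 32.2% of all genes), with a median change of 0.68. With quantile normalization 4 rose (25%) and with normexp correction 5 (31.2%), against 20.9% and 20.5% of all genes. With equal medians 2 rose (12.5%) and with cyclic loess 1 (6.25%), against 20.0% and 18.8% of all genes. These shares rest on few calls. Utp25 had the largest rise among the 16 genes, with intensities of 218.7, 119.2, 140.2 and 195.6 in tumors and of 44.5, 60.4, 47.3 and 54.8 in controls. The lowest tumor was close to double the highest control, and the rise was 1.42 ± 0.22 log2 units, or 2.67-fold (limma adjusted p = 0.00163). The other 3 probes for Utp25 differed by 1.41, 0.96 and 0.46, the last of which did not pass. Utp23 read 90.2, 109.6, 133.3 and 136.8 in tumors and 31.0, 58.0, 52.9 and 59.7 in controls, a rise of 1.02 ± 0.22 log2 units (limma adjusted p = 0.00635) without overlap. Nol10 read 409.4, 291.2, 471.0 and 482.4 in tumors and 173.2, 284.1, 220.6 and 192.4 in controls. For Nol10 control 2 was just under tumor 2, and the rise was 0.88 ± 0.23 log2 units (limma adjusted p = 0.0140). Utp23 lost its call with cyclic loess, and Nol10 with equal medians and cyclic loess.

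The other 4 that rose were Utp15, Utp4, Nop14 and Nop9, by 0.70 to 0.77 log2 units, and all 4 lost the call under each of the 4 scalings. Utp4 and Utp15 belong to the subcomplex that binds the precursor while it is being transcribed. The call for Utp4 did not survive leaving out any array other than tumor 1 (adjusted p up to 0.112). That for Nop14 was lost without tumor 3, tumor 4, control 1 or control 3 (adjusted p up to 0.0903), and that for Utp15 without tumor 4, control 1 or control 3 (adjusted p up to 0.0661).

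The 9 processome genes that did not pass were Rrp9, Rrp12, Utp11, Imp3, Nol11, Rrp36, Imp4, Nol7 and Utp6, with differences from -0.36 to 0.80. Rrp9, a protein of the snoRNP that guides the first cuts, read 266.4, 83.2, 197.7 and 232.5 in tumors and 72.1, 124.2, 100.7 and 94.8 in controls. Tumor 2 lay inside the control range, and without it Rrp9 rose by 1.13 log2 units (limma adjusted p = 0.00610, against 0.0768 with all arrays). Imp3 and Imp4 act in the same small complex of the processome. Imp3 differed by 0.45 ± 0.17 and its groups did not overlap (limma adjusted p = 0.0616), and it was called with quantile normalization (0.64), with normexp correction (0.62) and without tumor 1. Imp4 differed by 0.01 ± 0.16 (limma adjusted p = 0.960), and its second probe by 0.13. Utp6 had the lowest value of this role, with 116.3, 310.4, 393.3 and 491.7 in tumors and 401.9, 377.7, 427.2 and 318.1 in controls. Tumor 1 was far below the other 7 arrays, and the difference of -0.36 ± 0.38 became 0.05 without tumor 1. Nol7 was near background, with a signal above background on 3 of 8 arrays, and differed by -0.09 ± 0.28.

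**Figure D3:**
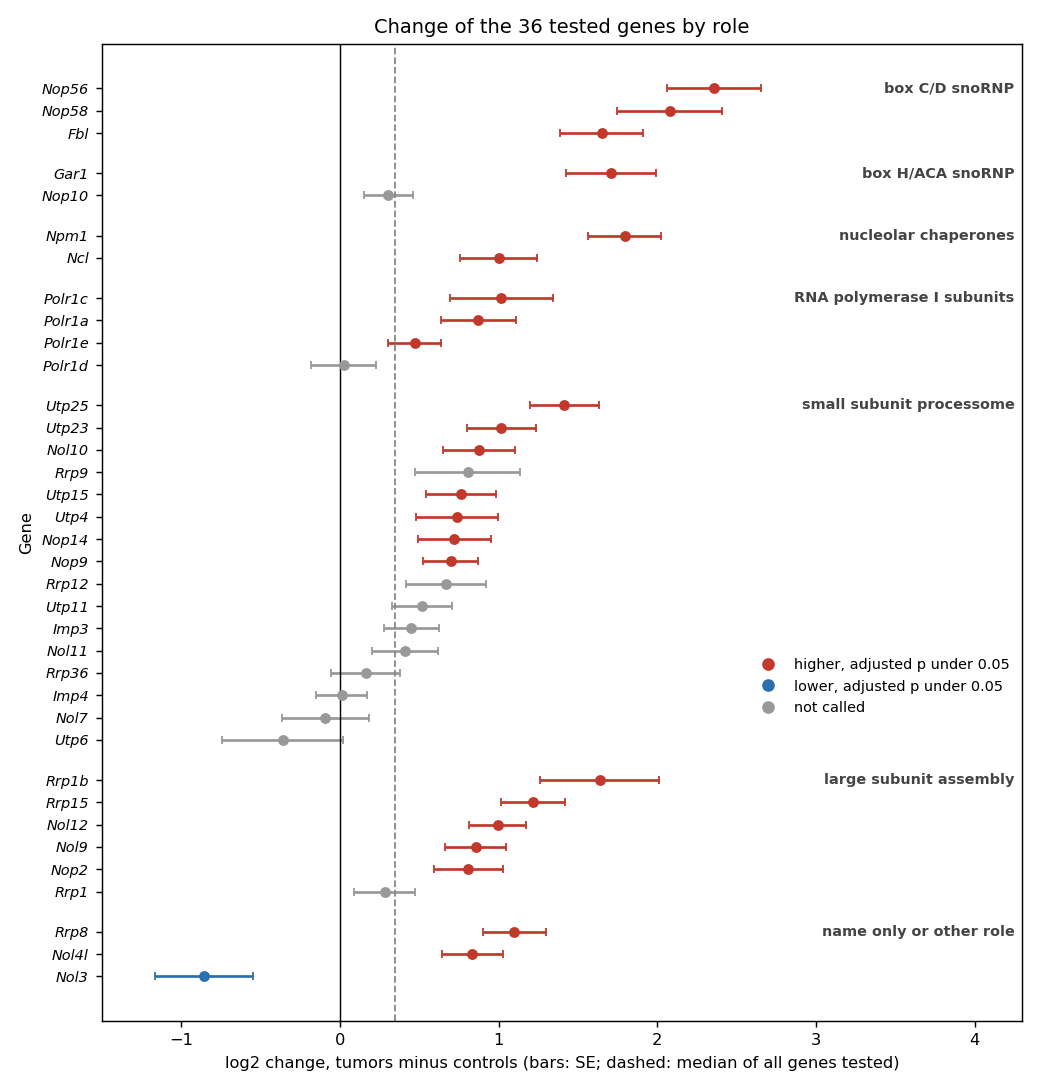
The log2 change of each of the 36 tested genes is plotted by role, with its SE, and a dashed line marks the median of all genes tested at 0.35. Nop56 and Nop58 lie farthest to the right, followed by Npm1, Gar1 and Fbl, Nol3 is the only gene called lower, and Polr1d, Imp4, Nol7 and Utp6 lie at or under 0.03.

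Of 6 tested factors of the large subunit 5 rose and 0 fell (83.3% higher, against 32.2% of all genes), with a median change of 0.93. Under the other scalings 3 or 4 rose (50% to 66.7%, against 18.8% to 20.9% of all genes). Rrp1b had intensities of 181.0, 177.0, 296.7 and 606.4 in tumors and of 53.0, 84.8, 84.0 and 97.5 in controls. Tumor 4 was about double the next tumor, and the rise was 1.64 ± 0.38 log2 units (limma adjusted p = 0.00852), or 1.28 without tumor 4. A second probe for Rrp1b rose by 1.01 and the dimmest probe, near background, differed by 0.15. Its paralog Rrp1 was dim, with 34.1, 18.9, 21.2 and 25.1 in tumors and 21.8, 22.0, 13.2 and 13.0 in controls, and the groups overlapped (0.28 ± 0.19, limma adjusted p = 0.257).

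Rrp15 read 344.5, 236.9, 428.1 and 379.2 in tumors and 134.1, 143.9, 138.8 and 130.9 in controls. The 4 controls were close together, and the rise was 1.22 ± 0.20 log2 units (limma adjusted p = 0.00229). Nol12, a nucleolar RNA-binding protein, read 249.7, 193.4, 228.8 and 272.3 in tumors and from 91.3 to 127.5 in controls. It rose by 0.99 ± 0.18 log2 units (limma adjusted p = 0.00310), with no overlap, and by 0.49 to 0.65 under the other scalings, where it was called each time. Nol9, an RNA kinase that acts on the spacer between the large subunit's RNAs, rose by 0.86 ± 0.19 from near background, and was called under 1 of the 4 scalings. Nop2, which methylates a cytosine of the large subunit RNA, had 179.3, 115.9, 138.9 and 229.6 in tumors and 73.8, 87.1, 89.8 and 89.7 in controls. All tumors were above all controls, by 0.81 ± 0.22 log2 units (limma adjusted p = 0.0166), and the call was lost under all 4 scalings (0.29 to 0.48). Its other 2 probes differed by 0.71 and 0.67, of which the first passed. Nop16 was at or under background on all 8 arrays and was not tested.

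A few of the genes were set apart, as sharing the name only or as having another role as well. Nol3, an inhibitor of cell death, was the 1 gene that fell, with 6.4, 18.8, 2.3 and -0.2 in tumors and 13.5, 36.2, 14.6 and 35.6 in controls. The signals were near background and tumor 2 lay inside the control range. The change was -0.85 ± 0.31 log2 units (limma adjusted p = 0.0497), and Nol3 was also called under all 4 scalings (-1.21 to -0.47). Leaving out an array other than tumor 2 ended the call (adjusted p up to 0.126). Nol4l read 127.8, 91.3, 132.8 and 154.5 in tumors and 66.0, 55.4, 58.3 and 72.7 in controls. It rose by 0.84 ± 0.19 (limma adjusted p = 0.00847) without overlap, and was not called under any of the 4 other scalings. Rrp8 was set here for its place, in human cells, in a complex that silences ribosomal genes. It read 23.2, 29.6, 13.2 and 19.8 in tumors and -8.0, 5.6, -1.4 and -0.4 in controls. All controls and tumor 1 were at or under background, and Rrp8 was at least 1.29-fold higher (limma adjusted p = 0.00331). The controls stood at or near the floor of 0, so the test cannot give the size of the rise. Without tumors 1 and 2 Rrp8 was too dim to be tested. It is still counted among the genes that rose, those called under all 4 scalings and, at an estimated 2.14-fold, those at least 2-fold higher. The remaining genes not tested were Nol4, Rrp7a, Utp14b and Utp3, all at or under background on all 8 arrays.

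The 42 genes lie on 19 chromosomes. Of the 9 genes with more than 1 probe bright enough to be tested, all probes were called for 1 and only some for 4. When every probe was tested by itself, 0 probes of these genes were called lower, so calls in opposite directions could not occur.

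The tumors differed in how far these genes rose. The median of the 36 genes against the mean of the controls was 0.83 in tumor 1, 0.46 in tumor 2, 0.80 in tumor 3 and 1.12 in tumor 4, and from -0.17 to 0.09 in the controls. The same median over all genes tested was 0.30, 0.30, 0.39 and 0.39 in tumors 1 to 4. Tumor 2 was the lowest and tumor 4 the highest, and the number of the 36 genes above the highest control was 28, 27, 30 and 32 in tumors 1 to 4. The same number was not counted over all genes tested, of which 30.1% had all 4 tumors above all 4 controls. The tumor of 5 weeks had a median of 0.93 against the control of the same age, with all genes at 0.43. A single array stands for each group at that age, so this has no replicate check.

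**Figure D4:**
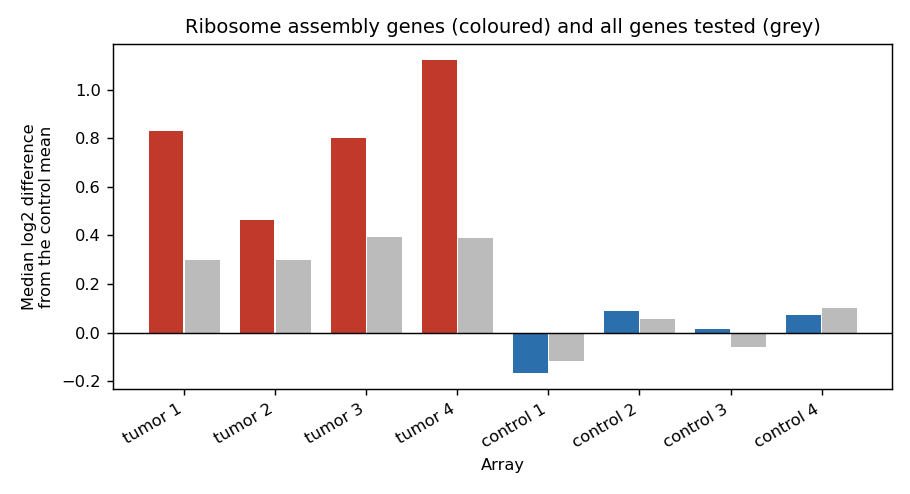
Bars give, for each array, the median log2 difference from the mean of the 4 controls, coloured for the 36 ribosome assembly genes and grey for all genes tested. Tumor 2 has the lowest coloured bar of the tumors at 0.46 and tumor 4 the highest at 1.12, and each tumor's coloured bar is above its grey bar.

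Markers of several cell types moved with the groups, and their part in the rises was not tested. All 5 tested markers of proliferating cells rose, and the summed intensity of the list was 1689.9 to 3380 in tumors and 103.9 to 188.1 in controls, with Bub1 and Ccna2 at or under background in both. Top2a rose by 4.97 and Cdk1 by 4.14 log2 units. All 8 nephron progenitor markers rose (3798.4 to 8622.1 against 178.7 to 620.1), among them Capn6 by 5.13 and Wt1 by 4.16 log2 units, with Six2, Eya1 and Osr1 under background in all controls. All 6 stroma markers rose (7413.6 to 18877.1 against 1076.5 to 3096), led by Lum and Col1a1. All 8 proximal tubule markers fell, Kap by 5.60 and Slc22a6 by 4.83, but tumor 1 kept a sum of 34973.4, against 889.7 to 2399.9 in tumors 2 to 4 and 38039.3 to 64183.1 in controls. Of 8 markers of the loop of Henle, distal tubule and collecting duct 6 fell, Egf and Pvalb most, and tumor 1 was again highest with a sum of 18543.7, against 846.1 to 3254 in tumors 2 to 4 and 21905.9 to 35491.7 in controls. Of 7 leukocyte markers 4 rose, led by Lyz2 (3.04) and Tyrobp (2.19), and tumor 2 had a sum of 19867.2 against 2793.6 to 5581.7 in the other tumors and 760.9 to 3221.5 in controls. Ptprc, Cd3e and Cd79a were at or under background in all tumors. None of the 6 endothelial (sums 1380.2 to 5583.7 against 1874.5 to 3576.4) and 3 erythroid markers (5990.1 to 25411.7 against 16729.6 to 22605.5) was called; Cdh5 differed by 1.18 and Alas2 by -0.95. Without tumors 1 and 2, a setting chosen after seeing the data, 26 of 35 tested genes rose, against 34.6% of all genes.

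Of 3 tested transcripts that mark sex 1 rose, 1 fell and 1 was not called. Xist, expressed from the inactive X chromosome of females, rose by 3.13 log2 units, and Kdm5d, on the Y chromosome, was under background in all 4 tumors and in control 2 and between 44.7 and 53.7 in the other 3 controls. Control 2 was also the 1 control with Xist above background (34.8, against 155.1 to 300.9 in tumors), so the controls were not alike in these transcripts. For Uty, a second Y-linked gene, the difference was -0.43 (limma adjusted p = 0.278), with 7.5 to 25.1 in tumors and 10.3 to 40.9 in controls. The groups overlapped, and 2 tumors were above background. With this split of Xist and Kdm5d, differences by sex and by tumor cannot be told apart here. Both probes for Lin28a were at or under background on all 8 arrays, so they do not check the labels. The sources used here do not say whether these probes match the transgene's transcript.

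The other genes of ribosome making were put in 7 further lists of 146 symbols, with probes for 124 and tests for 106. Of the 106, 65 rose and 1 fell (61.3% higher, against 32.2% of all genes), with a median 0.42 above that of all genes. Under the 4 other scalings 31 to 42 rose (29.2% to 40%, against 18.8% to 20.9% of all genes), and the relative median was 0.33 to 0.47. Of 11 other snoRNP proteins and assembly factors 7 rose and 0 fell (63.6% higher, against 32.2% of all genes). Tgs1, which modifies the cap of some snoRNAs, rose by 1.55 ± 0.19 log2 units, and Ruvbl1, an ATPase of the machinery that assembles box C/D particles, by 1.42 ± 0.21. Nhp2, the other core protein of the box H/ACA particle, differed by 0.48 ± 0.33 and did not pass (limma adjusted p = 0.264), with 512.3 to 1369.2 in controls and 976.2 to 1331.2 in tumors.

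Of 10 other subunits and initiation factors of RNA polymerase I 5 rose and 0 fell (50% higher, against 32.2% of all genes). The 5 include Taf1c, which was above background in 1 tumor and 0 controls. Its bound is only 0.99-fold, so these values do not give it a smallest rise. Taf1c is also counted among the 65 genes of these lists that rose. Under the other scalings 20% to 33.3% of this list rose, against 18.8% to 20.9% of all genes. Polr2h, a subunit common to the 3 nuclear polymerases, rose by 1.31 ± 0.27 and Cd3eap, a subunit of polymerase I, by 1.16 ± 0.29 log2 units. Cd3eap was not called with cyclic loess (0.72, adjusted p = 0.0527). For comparison, of 7 tested subunits of RNA polymerase III 2 rose (28.6%, against 32.2% of all genes). Polr3b rose by 0.66 ± 0.24 and Polr3d by 0.58 ± 0.19, and neither was called under the 4 other scalings. Polr3e, of the same enzyme, fell by 1.72 ± 0.45 log2 units (limma adjusted p = 0.0147), from 552.7, 136.6, 613.5 and 509.7 in controls to 125.2, 66.4, 111.6 and 146.5 in tumors. Control 2 lay within the tumor range for Polr3e. The call was lost without tumors 1 and 2 (-1.52, adjusted p = 0.0654). The polymerase III list then had a median of 0.40, against 0.37 for all genes. In it 3 of 7 rose (42.9%, against 34.6% of all genes). Under the 4 other scalings the list median relative to all genes was -0.30 to -0.14. Polr3k (-0.50 ± 0.92, not called) read -28.2 in tumor 1, 261.4 to 378.7 in tumors 2 to 4 and 179.8 to 245.9 in controls. A dimmer probe for Polr3k read 125.9 to 221.5 in tumors and 74.2 to 107.1 in controls.

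Of 27 other small subunit factors 16 rose (59.3%, against 32.2% of all genes). Wdr75 rose by 1.24 ± 0.18 and Bms1, a GTPase of the processome, by 1.22 ± 0.25. Of 33 other large subunit factors 24 rose (72.7%), Tex10 by 1.65 ± 0.22 and Sdad1 by 1.45 ± 0.27. In neither list did a gene fall, except with the other scalings, under which 1 or 2 small subunit factors did. Of 11 genes of the RNA exosome, the complex that trims and degrades RNA from its end, 5 rose (45.5%, against 32.2% of all genes). Exosc8 rose by 2.17 ± 0.21 (4.51-fold) and Exosc10 by 1.42 ± 0.22 log2 units. Exosc8 read 394.8, 288.6, 372.7 and 354.5 in tumors and 50.6, 90.1, 50.2 and 77.3 in controls, with a wide gap between groups. Of 7 other nucleolar proteins 6 rose and 0 fell (85.7% higher, against 32.2% of all genes). Tcof1, a cofactor of ribosomal gene transcription, rose by 1.66 ± 0.44 and Nifk, which binds the proliferation antigen Ki-67, by 1.42 ± 0.18. Tcof1 was not called with cyclic loess or normexp correction.

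**Figure D5:**
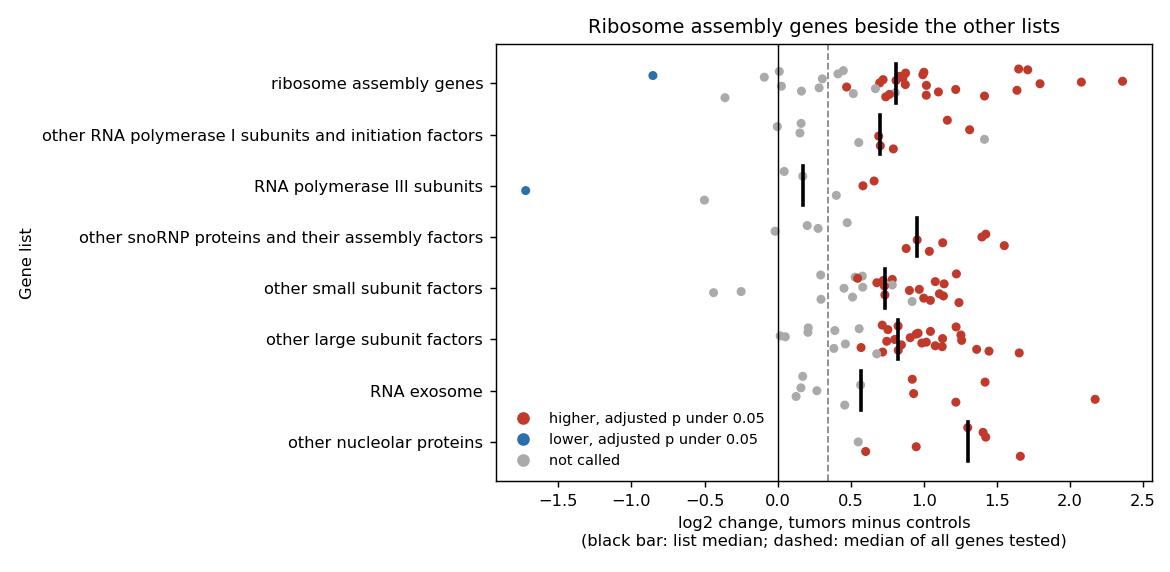
The log2 change of each tested gene is plotted for the 36 ribosome assembly genes and for the 7 other lists, with red points called higher, blue called lower, grey not called, and a black bar at each list's median. The median is 0.17 for RNA polymerase III, under the dashed line of all genes at 0.35, and between 0.57 and 1.30 for the other lists. Without tumors 1 and 2 the polymerase III median was 0.40, against 0.37 for all genes.

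The motif CACGTG, the E-box bound by Myc and related factors, reads the same on both strands. It was in none of the windows of Nop56, Nop58 and Gar1, whose stretches are printed with their values. It was in the windows of 7 of the 34 ribosome assembly genes (20.6%), against 11.4% of 8509 tested genes with a window and 8.91% of all protein-coding genes. Of the 20 that rose and have a window 3 held it, against 10.5% of all genes called higher, and of the 9 tested and not called 2 held it. The stretches are shown with the motif in capitals for Nop2 at chr6:125131793-125131882 (plus strand), Nol11 at chr11:107189382-107189471 (minus strand) and Imp4 at chr1:34439669-34439758 (plus strand), of which Nop2 rose and the other two were not called.
Nop2: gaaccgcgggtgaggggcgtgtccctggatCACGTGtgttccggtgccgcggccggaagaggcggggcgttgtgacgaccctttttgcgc
Nol11: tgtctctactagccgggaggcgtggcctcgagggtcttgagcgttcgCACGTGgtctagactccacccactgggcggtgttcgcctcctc
Imp4: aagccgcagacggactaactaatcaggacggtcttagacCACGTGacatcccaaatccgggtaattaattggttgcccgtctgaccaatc

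In Utp4 and Utp25, which rose, the motif lies just after an annotated start (for Utp25, of some transcripts), at chr8:106893655-106893660 and chr1:193130223-193130228. The last 2 genes with the motif, Utp14b and Rrp7a, were under background. A motif match is a description of these letters and was not tied to the changes.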

How the data were processed

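Total RNA of 8 mouse kidney samples was measured on Illumina bead arrays with biotin label, per the labels' protocols. The deposited series values are intensities on a linear scale. The authors had subtracted background, since 20.2% to 28.4% of an array's probes are negative, and had scaled the arrays, since each has a mean of 274. The sources used here do not name the software or method. A second table of signals was not used, because its 16 columns of values match no sample's labels.

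Negative values became 0, and log2 of the value plus 16 was used, which understates the changes of dim genes. A probe was above background where it exceeded 3 times the array's noise, estimated from its values below 0 (44.2% to 55.3% of probes per array); a gene under it on all arrays of 1 group has a bound, "at least N-fold". The number of arrays limits the precision. Probe symbols came from the platform annotation (23978 probes with 1, 1719 with none). The 10279 probes under the 40th percentile of mean log2 value were removed and the brightest remaining probe stood for a gene. Groups were taken from the titles and compared with limma 3.58.1 in R 4.3.3 (two-sided, no covariate, Benjamini-Hochberg adjusted p under 0.05 over 11413 genes and unnamed probes). The test was checked on simulated data with few changed genes, independent values and no shift of whole arrays. These data differ in that, so the check does not cover the effect of scaling. Gene lists are described by counts and medians, without a list test.

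The symbol rule for the genes, the lists and the settings were chosen with earlier results of these data known. Every gene of the snoRNP, polymerase I and chaperone roles was to be described, with the 3 largest called rises and 2 smallest changes of the processome and large subunit roles. So were every gene called lower and every gene set apart as sharing the name only or having another role. Of each other list the 2 largest called rises and the largest called fall were named, and of each marker list up to 2 genes; further genes (Rrp9, Imp3, Imp4, Nol9, Nhp2 and those whose calls changed) were named after their values were seen.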

Additional observations from a re-analysis of the deposited data

Results flagged for a closer look

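In 4 of the 72 groups of 4 arrays examined (36 genes, tumors and controls), 1 array stood apart from the other 3 by Dixon's ratio of gap to range at its 95% critical value. Chance gives about 1 in 20. All 4 were controls. Nop58 had 172.8 in control 1 and 314.9 to 322.2 in the other controls (ratio 0.963). Nop2 had 73.8 in control 1 and 87.1 to 89.8 in the others (ratio 0.842). Imp3 had 1608.6 in control 3 and 1786.4 to 1810.1 in the others (ratio 0.888). Rrp8 had 5.6 in control 2, where the other controls were negative and stood at the floor of 0, so that the ratio is 1 by construction.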

How the results depend on the processing

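The number of ribosome assembly genes called higher (23, where 32.2% of all genes were) was 12 with equal medians (20.0% of all genes) and 11 with cyclic loess (18.8%). It was 16 to 29 under the other settings that kept all arrays, where 18.2% to 48.5% of all genes were called higher. The setting with every probe by itself counted probes, 27 of 50. With 1 array left out the number of genes was 18 to 25, where 23.3% to 35.7% of all genes were called higher. The 1 call lower became 0 with 64 added, without a filter, with genes above background on all 8 arrays, with every probe by itself, with age as a covariate and with the arrays of 4 months alone, and was 0 to 1 with 1 array left out. Array weights raised the calls over all genes from 5064 to 7644. The split of all calls depended on scaling: 72.6% were higher as deposited, and 50.1% to 55.9% under the other 4 scalings. With the number of the samples as a replicate block, 22 rose and 1 fell, and 5088 genes were called. Polr1c (adjusted p = 0.0551) and Polr1e (0.0586) were then not called, which left 1 of 4 polymerase I subunits, and Rrp12 was (0.0398). Same-numbered tumors and controls deviated together with correlations of 0.21, 0.20, 0.11 and 0.07, and tumors 1, 3 and 4, but not tumor 2, correlated best with the control of their own number. This hints at pairs, but the labels do not state them and the last correlation was under 0.1, so the numbers were not used as pairs. Signs turned only for genes that were not called. With quantile normalization Imp4 was -0.048, Rrp36 -0.16 and Rrp1 -0.15; with equal medians Nop10 -0.067, Polr1d -0.35, Imp4 -0.36 and Rrp36 -0.19; with cyclic loess Polr1d -0.037, Imp4 -0.16, Rrp36 -0.26, Nol11 -0.057 and Rrp1 -0.17. With normexp Imp4 was -0.046, Rrp36 -0.13 and Rrp1 -0.068, and with array weights Imp4 was -0.040. With the arrays of 4 months alone Polr1d was -0.064, Imp4 -0.050 and Utp6 0.073, and without tumors 1 and 2, a setting added after seeing the data, Utp6 was 0.21. With 1 array left out, Polr1d ran from -0.054 to 0.14, Imp4 from -0.044 to 0.071, Utp6 from -0.60 to 0.046 and Nol7 from -0.32 to 0.047. The cause of these shifts was not tested. Signal near background limits what can be said of Nol3, Nol7, Nol9, Rrp1 and Rrp8, and nothing can be said of the 6 genes not tested.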
